A study of Mus musculus with 6 samples.

Results

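Transcripts of the collagen family were measured in mouse embryonic fibroblasts with and without Lpar6. The family was taken as all probes whose annotated symbol is written Col, a number, a and a number. This rule gave 91 of the 45281 probes on the array and 41 of the 19057 genes with a named probe. A probe was analysed if its signal was above background, at a detection p-value below 0.05, on at least 3 of the 6 arrays, and each gene was represented by its brightest such probe. By this filter, 32 collagen genes with 51 probes were analysed. The other 9 genes (Col4a3, Col4a4, Col6a4, Col6a5, Col6a6, Col11a2, Col13a1, Col19a1 and Col25a1) had 18 probes with intensities from 64.8 to 107 and are described here only as not passing the filter. Col6a3, Col12a1 and Col20a1 had no annotated probe and were not analysed here.

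Collagens are secreted or membrane-bound proteins built of 3 chains wound into a triple helix, and each Col gene encodes 1 chain. Fibril-forming collagens make the ropes of bone, tendon, skin and cartilage, type IV collagen makes the sheets of basement membranes, type VI makes beaded filaments around cells, and FACIT collagens attach to the surface of fibrils. Fibroblasts are known as a main source of the type I and type III fibrils of connective tissue, while types II, IX, X and XI are those of cartilage.

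The cells were primary fibroblasts grown out of mouse embryos of a mixed 129SV and C57BL/6 background. The 3 arrays called A to C came from Lpar6+/+ cells (wild type) and the 3 arrays called D to F from Lpar6-/- cells (knockout). Lpar6 encodes a receptor for lysophosphatidic acid, a lipid signal, and the comparison asks which transcripts differ in cells that lack it. The labels give no treatment, embryo age or passage, and whether replicates stem from different embryos or dishes is not stated. P-values therefore cover only the variation among these 6 arrays, part or all of which may be technical. All arrays were on 1 slide.

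Lpar6 itself had intensities of 1223 to 1373 in wild-type cells and of 76.0 to 77.9, not well above background, in knockout cells (at least 37.5-fold lower, limma adjusted p = 1.51e-09). An array of wild-type RNA detected 19646 to 20137 probes, and one of knockout RNA 19006 to 19249. Of 9 fibroblast markers, 8 passed the filter, among them Thy1, Pdgfra, Vim and Dcn, and Postn was detected on 0 arrays. In RNA of whole cultures, fewer cells of a type and less RNA per cell cannot be told apart.

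Most collagen transcripts differed between the genotypes, and the classes did not move one way. Of the 32 genes, 17 were higher in the knockout, 9 were lower and 6 did not pass the test (limma, Benjamini-Hochberg adjusted p below 0.05 over all 19802 analysed probes). That is 81.2% of the collagens, where 39.7% of all 11040 analysed genes passed, 20.6% higher and 19.1% lower. The arrays of one genotype lay wholly above or below those of the other for 28 of the 32 genes (87.5%), against 52.8% of all genes. A called change of at least 2-fold was found for 11 collagens (34.4%), 7 higher and 4 lower, against 6.79% of all genes. The median change of the 32 genes, taken as knockout minus wild type in log2 units, was 0.43, and that of all genes was 0.03. With the arrays scaled by their medians in place of quantile normalization, the median of all genes shifted to -0.08 and 1393 of all genes were higher and 2710 lower, in place of 2273 and 2106, while 17 collagens were higher and 10 lower. The median covers only genes that passed the filter. It was 0.53 over the 26 collagens detected on all 6 arrays and 0.18 on log2 intensities without background correction, where changes of dim probes are smaller. All changes below are knockout minus wild type in log2 units ± SE from limma with 3 arrays in each group, and levels are normalized log2 intensities.

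**Figure D1:**
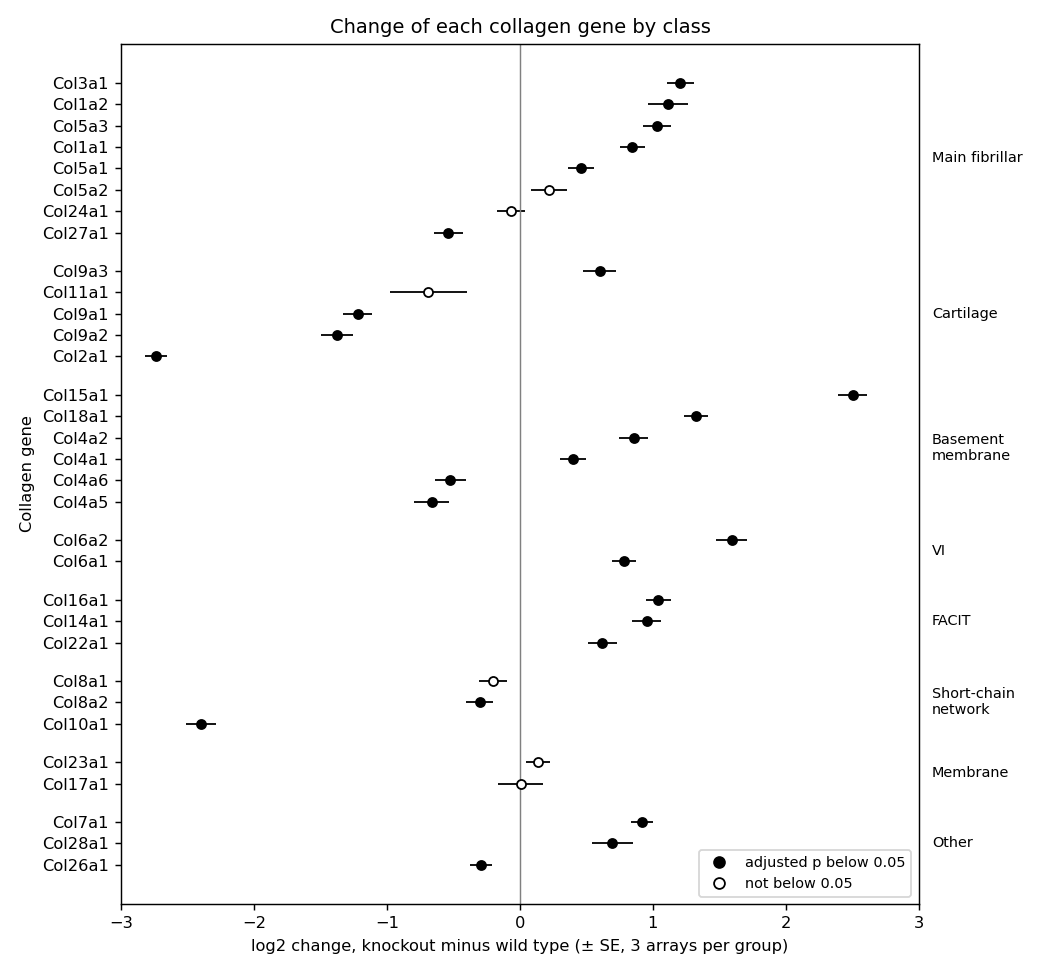
Change of each of the 32 analysed collagen genes, knockout minus wild type in log2 units on the horizontal axis, with bars of 1 SE from limma and genes grouped by class. Filled points passed an adjusted p of 0.05, and points for Col10a1 and Col4a6, which were not detected on any knockout array, are fitted values rather than bounds. Cartilage collagens reach -2.74 (Col2a1), and Col15a1 is highest at 2.50.

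Promoter sequence was read for the collagens with an entry in RefSeq (build GRCm38.p6), which was 25 of the 32 genes with 28 promoters. The 5 shown are those of the 3 largest called rises (Col15a1, Col3a1 and Col1a2) and the 2 largest called falls (Col10a1 and Col9a2) among genes with a single promoter entry, so that the stretches upstream of collagens that moved opposite ways can be compared. Each is the 250 bases before the annotated start, 5′ to 3′ on the + strand. Capitals mark 3 motifs searched on both strands, which are the TATA box (TATAAA), the CCAAT box and the GC box (GGGCGG), and no marked motif overlaps another. The windows lie at chr4:47207762-47208011 for Col15a1, chr1:45311288-45311537 for Col3a1, chr6:4505368-4505617 for Col1a2, chr10:34389731-34389980 for Col10a1 and chr4:121039316-121039565 for Col9a2.
Col15a1: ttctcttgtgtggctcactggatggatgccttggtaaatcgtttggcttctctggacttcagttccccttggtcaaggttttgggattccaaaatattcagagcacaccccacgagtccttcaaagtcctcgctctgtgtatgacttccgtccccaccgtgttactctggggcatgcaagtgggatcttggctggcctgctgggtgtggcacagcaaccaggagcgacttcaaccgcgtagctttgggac
Col3a1: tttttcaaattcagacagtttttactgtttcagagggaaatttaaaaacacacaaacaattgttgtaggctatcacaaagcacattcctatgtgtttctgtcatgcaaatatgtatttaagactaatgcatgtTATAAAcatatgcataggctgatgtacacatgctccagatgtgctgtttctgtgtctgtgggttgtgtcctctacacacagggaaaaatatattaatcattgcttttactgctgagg
Col1a2: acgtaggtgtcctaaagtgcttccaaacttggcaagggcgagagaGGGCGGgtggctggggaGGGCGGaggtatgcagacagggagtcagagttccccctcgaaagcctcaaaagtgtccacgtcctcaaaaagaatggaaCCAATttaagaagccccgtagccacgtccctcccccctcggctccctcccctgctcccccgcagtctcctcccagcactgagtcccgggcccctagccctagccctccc
Col10a1: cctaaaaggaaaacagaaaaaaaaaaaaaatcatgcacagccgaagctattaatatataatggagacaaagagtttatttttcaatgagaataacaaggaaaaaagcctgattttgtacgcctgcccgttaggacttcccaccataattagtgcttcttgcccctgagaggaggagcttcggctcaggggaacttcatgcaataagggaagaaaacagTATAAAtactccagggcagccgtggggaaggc
Col9a2: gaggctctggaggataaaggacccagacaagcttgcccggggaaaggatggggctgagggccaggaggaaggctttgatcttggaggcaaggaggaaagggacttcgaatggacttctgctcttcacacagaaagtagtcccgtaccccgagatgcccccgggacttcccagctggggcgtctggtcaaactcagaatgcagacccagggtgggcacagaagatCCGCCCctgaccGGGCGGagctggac

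In these windows Col10a1 carried TATAAA from base -32, counted back from the annotated start, and Col3a1 carried it from base -117. Col1a2 carried CCAAT from base -109 and GGGCGG at 2 places, Col9a2 carried the GC-rich motif at 2 places, and Col15a1 held none of the 3 motifs. Over all 28 collagen promoters, GGGCGG stood in 17 (60.7%), against 32.7% of all 32851 promoters of this length. The collagen promoters belong to genes that passed the filter on detection, while all promoters include genes that did not. The shares are therefore not of like sets, and the part of the filter in their difference was not tested. It stood in 9 of the 15 promoters of genes called higher and in 5 of the 8 of genes called lower. CCAAT stood in 11 of the 28 (39.3%, against 33.8% of all) and TATAAA in 3 (10.7%, against 12.4%). A match describes letters in this window and shows no binding.

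The main fibril-forming collagens were mostly higher in the knockout. The shares over all genes were 20.6% higher and 19.1% lower. All 8 genes of this class were analysed, of which 5 were higher (Col1a1, Col1a2, Col3a1, Col5a1 and Col5a3), 1 was lower (Col27a1) and 2 did not pass (Col5a2 and Col24a1). Their median change was 0.65, and 0.37 without background correction. Col1a1 and Col1a2 encode the α1 and α2 chains of type I collagen, the main protein of bone, tendon and skin. Col1a1 (chromosome 11, probe ILMN_2687872) stood at 13.27, 13.22 and 13.41 on the wild-type arrays and at 14.12, 14.23 and 14.08 on the knockout arrays. Before normalization these were intensities of 9160 to 10539 in the wild type and of 17278 to 20407 in the knockout. All knockout arrays lay above all wild-type arrays, by 0.84 ± 0.094 (adjusted p = 0.000124). Col1a2 (chromosome 6) stood at 9.23, 8.82 and 8.96 in the wild type and at 9.83, 10.36 and 10.17 in the knockout. Its groups did not overlap either, and the change was 1.11 ± 0.15 (adjusted p = 0.000454).

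Type III collagen, a homotrimer of Col3a1 chains found with type I in soft tissues, rose by its brighter probe. That probe (chromosome 1) stood at 8.81, 8.87 and 8.70 in the wild type and at 9.93, 9.90 and 10.16 in the knockout, a change of 1.21 ± 0.10 (adjusted p = 2.3e-05). The other Col3a1 probe was dim, with overlapping groups between 5.12 and 5.58, and its change was 0.15 ± 0.12 (adjusted p = 0.369). The 2 probes thus give different answers on Col3a1, and their mean gives a change of 0.68.

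Type V collagen is a minor component that sits inside type I fibrils and is known to set their diameter. Col5a1, its most abundant chain, stood at 13.44, 13.26 and 13.30 in the wild type and at 13.87, 13.82 and 13.68 in the knockout. The groups were apart by a small margin, with a change of 0.46 ± 0.097 (adjusted p = 0.00511). Col5a2, the partner chain, stood at 8.46, 8.67 and 8.97 in the wild type and at 8.82, 8.87 and 9.05 in the knockout, so that the groups overlapped (0.22 ± 0.14, adjusted p = 0.241). Its dimmer probe stood at 6.54, 6.67 and 6.85 against 7.45, 7.48 and 7.55, and changed by 0.80 ± 0.10 (adjusted p = 0.000281). Averaged over both probes, Col5a2 passed (0.51, adjusted p = 0.00578). Col5a3, a further type V chain, was near background in the wild type, where 2 of 3 arrays detected it. It stood at 4.83, 5.11 and 5.01 in the wild type and at 5.96, 5.98 and 6.11 in the knockout. All knockout arrays were higher, by 1.03 ± 0.10 (adjusted p = 6e-05), or by 0.29 without background correction.

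Col24a1 and Col27a1 encode a separate group of fibrillar collagens with shorter or interrupted helices. Col27a1, known from cartilage, stood at 6.58, 6.57 and 6.73 in the wild type and at 6.23, 5.90 and 6.12 in the knockout. The knockout arrays were all lower, and the change was -0.54 ± 0.11 (adjusted p = 0.00408; -0.22 without background correction). Col24a1 had 3 analysed probes with overlapping groups and changes from -0.40 to -0.07, none of which passed.

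**Figure D2:**
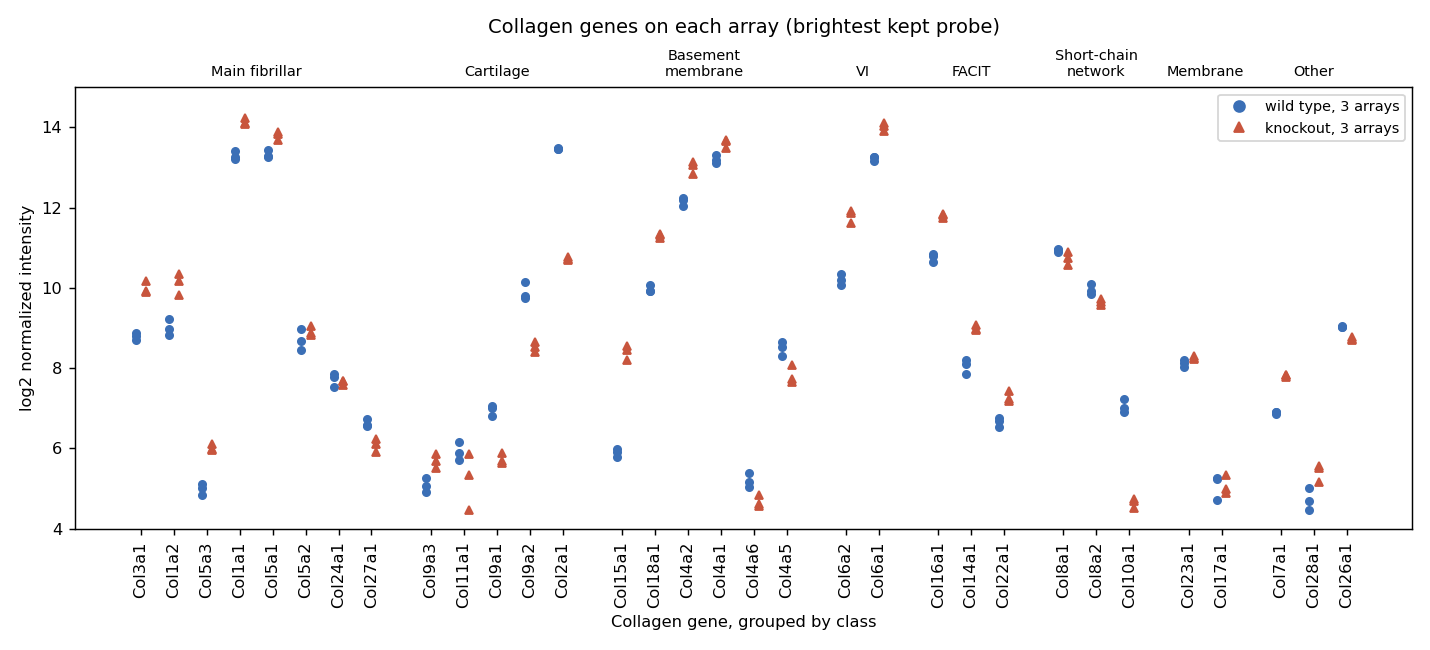
Normalized log2 intensity of the collagen genes on each of the 6 arrays, with 1 point per array, wild-type arrays A to C and knockout arrays D to F, and genes grouped by class. Levels are comparable between arrays for 1 gene, not between genes. Col2a1 lies between 13.46 and 13.48 on the wild-type arrays and between 10.68 and 10.78 on the knockout arrays, and Col15a1 goes from 5.79 to 5.98 up to 8.21 to 8.55.

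Most cartilage collagens were lower in the knockout. Col10a1 was counted with the short-chain collagens and is described below. Lower calls made up 19.1% of all genes, and higher calls 20.6%. Of 5 analysed cartilage genes, 3 were lower (Col2a1, Col9a1 and Col9a2), 1 was higher (Col9a3) and 1 did not pass (Col11a1). The median change was -1.22, and -0.50 without background correction. Col2a1 encodes the chain of type II collagen, the main fibril of cartilage. Its brightest probe (chromosome 15, ILMN_1246054) stood at 13.47, 13.48 and 13.46 in the wild type and at 10.78, 10.68 and 10.72 in the knockout. The spread within each genotype was small beside the distance between them, and the fold was 6.68 (-2.74 ± 0.084, adjusted p = 8.64e-08). The other 2 Col2a1 probes changed by -2.79 ± 0.094 and -2.70 ± 0.12, so that all 3 probes of the gene gave nearly the same size.

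Type IX collagen is the FACIT collagen that coats type II fibrils, and its trimer takes 1 chain from each of Col9a1, Col9a2 and Col9a3. Col9a2 (chromosome 4) stood at 10.14, 9.76 and 9.80 in the wild type and at 8.64, 8.40 and 8.53 in the knockout, a change of -1.38 ± 0.12 (adjusted p = 2.93e-05). Col9a1 (chromosome 1) stood at 7.0, 6.80 and 7.05 in the wild type and at 5.62, 5.87 and 5.70 in the knockout, a change of -1.22 ± 0.11 (adjusted p = 2.58e-05). Both genes had groups far apart on the log2 scale. The size for Col9a1 was -0.50 without background correction and -0.68 when averaged with a second probe, which was near background, overlapped between genotypes and changed by -0.14 (adjusted p = 0.535). Col9a3 (chromosome 2) went the other way, at 5.05, 4.92 and 5.26 in the wild type and 5.50, 5.68 and 5.85 in the knockout. Its change of 0.60 ± 0.12 (adjusted p = 0.00454) came from a single dim probe, whose intensities were 104 to 107 in the wild type and 110 to 118 in the knockout, and it was 0.16 without background correction.

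Type XI collagen lies inside type II fibrils, where Col11a1 supplies one of its chains. The brightest Col11a1 probe (chromosome 3) stood at 5.71, 6.15 and 5.88 in the wild type and at 5.34, 5.86 and 4.47 in the knockout. Array F was far lower than arrays D and E, and the groups overlapped (-0.69 ± 0.29, adjusted p = 0.0904). Without array F the change was -0.32 (adjusted p = 0.216), and without array E it was -1.01 (adjusted p = 0.0111). A second Col11a1 probe passed (-0.68 ± 0.13, adjusted p = 0.00299) and the remaining one did not (-0.25 ± 0.14, adjusted p = 0.199). Both were detected on 1 of the 3 knockout arrays.

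Col10a1 encodes type X collagen, a short chain that marks hypertrophic chondrocytes, the cells of the growth plate that precede bone. Its probe (chromosome 10, ILMN_2675388) stood at 6.91, 7.22 and 7.0 in the wild type, with intensities from 199 to 229, and in the knockout it was not well above background, with intensities from 85.7 to 90.1. This is at least 4.2-fold lower (adjusted p = 5.18e-07). That bound holds on the background-corrected scale, and the fitted change was -0.84 without background correction and -1.16 with the authors' log2 values. For such a probe the bound sets the wild-type mean against a floor in the knockout, which on each array is the dimmest detected probe or the probe's own value, whichever is brighter.

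Markers of chondrocytes other than collagens were lower in the knockout, as were most cartilage collagens. Of 12 such genes on the array, 8 were analysed and all 8 were lower in the knockout, against 19.1% of all genes, with a median change of -1.46. Their summed intensity before normalization was 6739 to 7592 in the wild type and 2830 to 3180 in the knockout. Matn1, a cartilage matrix protein, changed by -2.05 ± 0.12, Snorc, a cartilage proteoglycan, by -2.04 ± 0.098, and Acan, the main cartilage proteoglycan, by -1.57 ± 0.15. Sox9, the transcription factor known to drive Col2a1 in chondrocytes, changed by -0.88 ± 0.087 (adjusted p = 5.27e-05). Matn3, Cnmd and Ucma were detected on 0 arrays and Epyc on 1. The part of a different share of chondrocyte-like cells in the lower cartilage collagens was not tested.

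Basement membrane collagens differed in both directions. Of 6 analysed genes, 4 were higher (Col15a1, Col18a1, Col4a1 and Col4a2) and 2 were lower (Col4a5 and Col4a6), with a median change of 0.63. Over all genes, 20.6% were higher and 19.1% lower. Col15a1 and Col18a1 encode related collagens that carry heparan or chondroitin sulfate chains and lie at the border of basement membranes, and the tail of type XVIII collagen is the source of endostatin. Col15a1 (chromosome 4, ILMN_1222111) stood at 5.79, 5.92 and 5.98 in the wild type and at 8.55, 8.44 and 8.21 in the knockout. It was 5.67-fold higher (2.50 ± 0.11, adjusted p = 4.01e-07), the highest change among the 32 analysed collagens, and by 1.36 on the log2 scale without background correction. Col18a1 (chromosome 10) stood at 10.08, 9.93 and 9.93 in the wild type and at 11.34, 11.32 and 11.25 in the knockout. The change was 1.32 ± 0.09 (adjusted p = 4.9e-06), and a second probe gave 1.12 ± 0.12.

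Type IV collagen occurs as 3 kinds of trimer, of which the one of 2 Col4a1 chains and 1 Col4a2 chain is found in nearly all basement membranes. Col4a1 stood at 13.32, 13.11 and 13.20 in the wild type and at 13.65, 13.68 and 13.50 in the knockout (0.40 ± 0.099, adjusted p = 0.0108). Col4a2 stood at 12.24, 12.05 and 12.19 in the wild type and at 13.14, 13.07 and 12.83 in the knockout (0.86 ± 0.11, adjusted p = 0.000289). These 2 genes lie head to head on chromosome 8, with annotated starts 21 bases apart, and both were higher on all knockout arrays. Col4a5 and Col4a6, chains of the less widespread trimers, also lie head to head, on chromosome X with annotated starts 1343 bases apart, and both were lower. Col4a5 stood at 8.30, 8.52 and 8.65 in the wild type and at 8.08, 7.74 and 7.66 in the knockout (-0.67 ± 0.13, adjusted p = 0.00395), with -0.72 ± 0.097 from a second probe. Col4a6 was detected on all wild-type arrays and no knockout array, at least 1.17-fold lower (adjusted p = 0.0074). This came from a single dim probe, with intensities of 103 to 118 in the wild type and 83.6 to 94.1 in the knockout. Its fitted change was -0.14 without background correction. The other Col4a6 probes were not detected on any array. Col4a3 and Col4a4, the remaining type IV chains, did not pass the filter on detection.

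Type VI collagen was higher in the knockout by every analysed probe. Its filaments are built of 1 Col6a1, 1 Col6a2 and 1 further chain, and fibroblasts are known to secrete it. Col6a1 (chromosome 10) stood at 13.27, 13.16 and 13.26 in the wild type and at 14.10, 13.91 and 14.03 in the knockout. The groups were apart, with a change of 0.78 ± 0.092 (adjusted p = 0.000166), and the other 2 probes gave 0.91 ± 0.097 and 0.94 ± 0.11. Col6a2, also on chromosome 10, stood at 10.34, 10.07 and 10.20 in the wild type and at 11.91, 11.62 and 11.86 in the knockout. Its change was 1.59 ± 0.11 (adjusted p = 6.55e-06), and 1.18 ± 0.099 by a second probe. Col6a4, Col6a5 and Col6a6, the other chains with a probe, did not pass the filter. The 2 analysed genes of this class were thus called higher, against 20.6% of all genes.

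The FACIT collagens other than type IX were higher, at 3 of 3 analysed genes with a median change of 0.95. Col16a1, a component of fibrils and microfibrils in skin and cartilage, stood at 10.83, 10.79 and 10.66 in the wild type and at 11.82, 11.84 and 11.75 in the knockout (1.04 ± 0.091, adjusted p = 2.44e-05). Col14a1, known to regulate fibril growth in tendon and skin, stood at 8.20, 7.86 and 8.10 in the wild type and at 8.98, 9.08 and 8.95 in the knockout (0.95 ± 0.11, adjusted p = 0.000144). Col22a1, a collagen of tissue junctions such as that of muscle and tendon, stood at 6.76, 6.69 and 6.53 in the wild type and at 7.44, 7.18 and 7.23 in the knockout (0.62 ± 0.11, adjusted p = 0.00166; 0.32 without background correction). In all 3 genes the lowest knockout array was above the highest wild-type array, as was so for 27.6% of all genes. Of all genes, 20.6% were called higher. Type IX is a FACIT collagen by structure, so that members of this class lay on both sides, with Col9a1 and Col9a2 lower.

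Type VIII collagen, a short-chain collagen of the sheets under endothelium and cornea, was close between the genotypes. Col8a1 stood at 10.98, 10.96 and 10.90 in the wild type and at 10.56, 10.76 and 10.90 in the knockout (-0.20 ± 0.10, adjusted p = 0.157). Col8a2 stood at 10.09, 9.86 and 9.92 in the wild type and at 9.73, 9.66 and 9.56 in the knockout (-0.30 ± 0.099, adjusted p = 0.0371). All knockout arrays lay below all wild-type arrays for Col8a2, and also for Col8a1, there by less than the rounding shown. A second Col8a1 probe likewise had groups apart and did not pass (-0.24 ± 0.091, adjusted p = 0.062). The call on Col8a2 was lost when single arrays were left out. The adjusted p was 0.129 without array A, 0.0736 without array C, 0.0749 without array E and 0.105 without array F. Fits with fewer arrays have less power, and the change was -0.24 without array A and -0.32 without array C. A second Col8a2 probe did not pass (-0.14 ± 0.12, adjusted p = 0.385).

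Among the collagens of other kinds, Col7a1 encodes type VII collagen, the anchoring fibril that fastens the epidermis to the dermis. It stood at 6.85, 6.90 and 6.91 in the wild type and at 7.77, 7.82 and 7.83 in the knockout, with the 2 groups apart and little spread in either (0.92 ± 0.083, adjusted p = 3.13e-05; 0.53 without background correction). Col28a1, a collagen of peripheral nerve, was detected on 1 wild-type and 3 knockout arrays, at 4.68, 5.0 and 4.46 against 5.51, 5.56 and 5.16 (0.70 ± 0.16, adjusted p = 0.00689; 0.19 without background correction). Col26a1, first described in testis and ovary, stood at 9.04, 9.01 and 9.02 against 8.70, 8.78 and 8.73 (-0.29 ± 0.083, adjusted p = 0.0219). This call was lost when single arrays were left out, with an adjusted p of 0.0653 without array A, 0.0558 without array B, 0.0548 without array C, 0.0556 without array D and 0.0505 without array F. The membrane collagens Col17a1, of the hemidesmosomes of skin, and Col23a1 did not pass, with changes of 0.00 ± 0.17 and 0.14 ± 0.089. The sign for Col23a1 turned to -0.02 when arrays were scaled by their medians in place of quantile normalization, and its second probe changed by -0.06.

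More than 1 analysed probe was available for 15 collagen genes. In 10 of them all probes gave the same call, in 5 the calls differed (Col3a1, Col5a2, Col8a2, Col9a1 and Col11a1), and in 0 did probes pass in opposite directions. In Col3a1, Col8a2 and Col9a1 the brightest probe passed and a dimmer one did not, and in Col5a2 and Col11a1 a dimmer probe passed and the brightest did not. Counting only genes of which every analysed probe passed, 16 collagens were higher and 7 were lower.

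**Figure D3:**
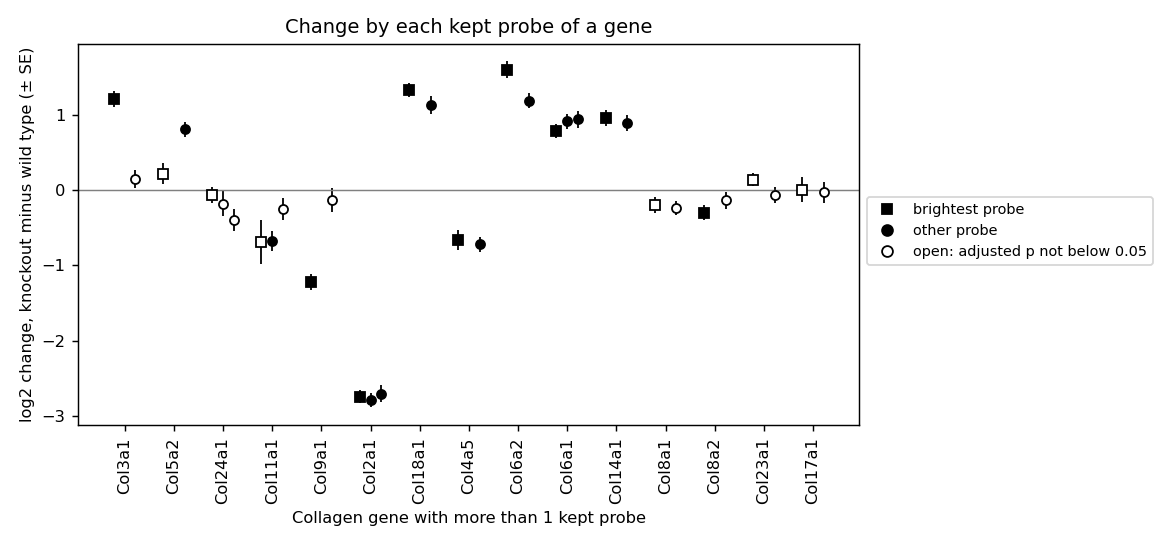
Change of every analysed probe of the 15 collagen genes with more than 1 such probe, knockout minus wild type in log2 units on the vertical axis with bars of 1 SE. Squares are the brightest probe of a gene, circles its other probes, and open symbols did not pass. The 3 Col2a1 probes lie between -2.79 and -2.70, while the 2 Col3a1 probes lie at 1.21 and 0.15.

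Partner chains of a trimer were compared by the sizes of their changes, and no pair passed a test. The difference between the changes of partner chains was computed for 10 pairs. An exact two-sided permutation test over the arrays was used, which cannot give less than 0.1 with 3 arrays against 3. In this paragraph the SE comes from the spread of the per-array differences within each genotype, not from limma. Col6a2 changed by 0.81 ± 0.063 more than Col6a1, and Col4a2 by 0.46 ± 0.05 more than Col4a1. The first of these depends on the probes, since the mean of each gene's analysed probes gave changes of 1.39 for Col6a2 and 0.88 for Col6a1. Col9a3 differed from Col9a2 by 1.98 ± 0.22 and from Col9a1 by 1.82 ± 0.12. Col11a1 was less reduced than Col2a1, by 2.05 ± 0.43. In these 5 pairs the per-array differences between the chains did not overlap between genotypes, and the exact p was the smallest possible, 0.1 (0.2 after adjustment over the 10 pairs). The pair of Col1a2 and Col1a1 differed by 0.27 ± 0.19 (exact p = 0.2), that of Col9a2 and Col9a1 by -0.16 ± 0.18 (exact p = 0.5) and that of Col4a6 and Col4a5 by 0.14 ± 0.19 (exact p = 0.4), all with overlap. Col5a2 against Col5a1 and Col8a2 against Col8a1 also overlapped, at -0.24 ± 0.23 (exact p = 0.3) and -0.10 ± 0.16 (exact p = 0.6). These differences are between probes whose response to a given change in RNA can differ, those of Col9a3 and Col11a1 are dim, and the design cannot reach 0.05 for any pair.

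Genes that make and mature collagen were mostly higher. Of 38 listed genes, 30 were analysed, of which 19 were higher and 3 lower (73.3%, against 39.7% of all genes), with a median change of 0.39. The number higher was 20 with the authors' log2 values, 14 without array A, 15 without array D and 13 at an adjusted p threshold of 0.01. In these settings 2 or 3 genes were lower. Collagen is modified in the endoplasmic reticulum, where P3h1 hydroxylates prolines with Crtap as its partner. P3h1 changed by 0.98 ± 0.10 (adjusted p = 7.07e-05), Crtap by 0.48 ± 0.091 and P3h3, a related enzyme, by 0.68 ± 0.12. The prolyl 4-hydroxylase subunits P4ha2, P4ha3 and P4hb were higher by 0.28 to 0.46, and P4ha1 did not pass (0.05 ± 0.12). Sec24d and Mia3, which carry procollagen out of the endoplasmic reticulum, changed by 0.94 ± 0.14 (adjusted p = 0.000631) and 0.52 ± 0.12 (adjusted p = 0.00923). Serpinh1, the collagen chaperone HSP47, did not pass (0.23 ± 0.089, adjusted p = 0.0643).

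The enzymes of collagen crosslinking did not share one direction. Plod1 and Plod3, lysyl hydroxylases, were higher (0.56 ± 0.13 and 0.41 ± 0.085), while Plod2, the lysyl hydroxylase of the chain ends, was lower (-0.74 ± 0.14, adjusted p = 0.00305). Among the lysyl oxidases, Loxl1 was higher (0.50 ± 0.086), Loxl4 was lower (-0.48 ± 0.11) and Lox did not pass (-0.03 ± 0.092). Colgalt1, which adds galactose to hydroxylysine, was higher (0.59 ± 0.12), and Colgalt2, with the same activity, was not detected on any knockout array (at least 1.06-fold lower, adjusted p = 0.0117).

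Of 9 analysed collagen receptors, 3 were higher, 1 was lower and 5 did not pass, with a median change of 0.29. The share called, 44.4%, was close to the 39.7% of all genes. Itga11 and Itga1, integrin chains that bind collagen, changed by 1.37 ± 0.10 (adjusted p = 7.76e-06) and 0.94 ± 0.10 (adjusted p = 0.000115), and Antxr2, which takes up type VI collagen, by 0.30 ± 0.084 (adjusted p = 0.0197). Ddr1, a receptor tyrosine kinase for collagen, was lower (-0.27 ± 0.089, adjusted p = 0.0388), a call that was lost without any 1 of the arrays A, B, C, D and F. Itgb1, the partner of these integrin chains, did not pass (0.40 ± 0.19, adjusted p = 0.124), nor did Ddr2 (0.08 ± 0.11).

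Genes of collagen breakdown went both ways. Of 11 analysed, 3 were higher and 4 lower (63.6%, against 39.7% of all genes), with a median change of -0.03. Mmp9, a gelatinase, changed by 1.84 ± 0.16 (adjusted p = 2.24e-05) and Ctsk, the collagen-cleaving cathepsin of bone, by 1.79 ± 0.099 (adjusted p = 1.33e-06). The collagenase Mmp13 changed by -0.91 ± 0.10 (adjusted p = 0.000115) and the gelatinase Mmp2 by -0.50 ± 0.085 (adjusted p = 0.00162). The inhibitor Timp1 was higher (0.51 ± 0.094), while Timp2 and Reck were lower by small amounts (-0.27 ± 0.088 each). When any 1 of the arrays A, B, C, E and F was left out, the number of lower calls was 2 in place of 4, below the 3 higher ones.

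Of 16 analysed regulators of collagen genes, 2 were higher and 8 lower (62.5% called), with a median change of -0.17. Sox9, among the lower ones, is also counted among the chondrocyte markers above. Runx2 and Smad4 had no annotated probe, and Smad7 and Bmp2 did not pass the filter. Of all genes, 20.6% were higher and 19.1% lower. Sox5, which acts with Sox9 on cartilage genes, changed by -1.35 ± 0.11 (adjusted p = 1.58e-05), and Sox6, its close relative, was not detected on any knockout array (at least 1.63-fold lower, adjusted p = 3.95e-05). The growth factors Bmp4 and Tgfb2 changed by -1.16 ± 0.087 (adjusted p = 9.35e-06) and -1.0 ± 0.096 (adjusted p = 4.43e-05), and Tgfb1 by 0.47 ± 0.12 (adjusted p = 0.0128). Scx, a tendon transcription factor known to act on Col1a1 in mouse, was lower (-0.68 ± 0.10), as was Ccn2, a matrix protein induced by TGF-β (-0.62 ± 0.10). Smad3, Tgfbr1, Tgfbr2 and Egr1 did not pass. Without array B, 1 regulator was higher in place of 2.

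**Figure D4:**
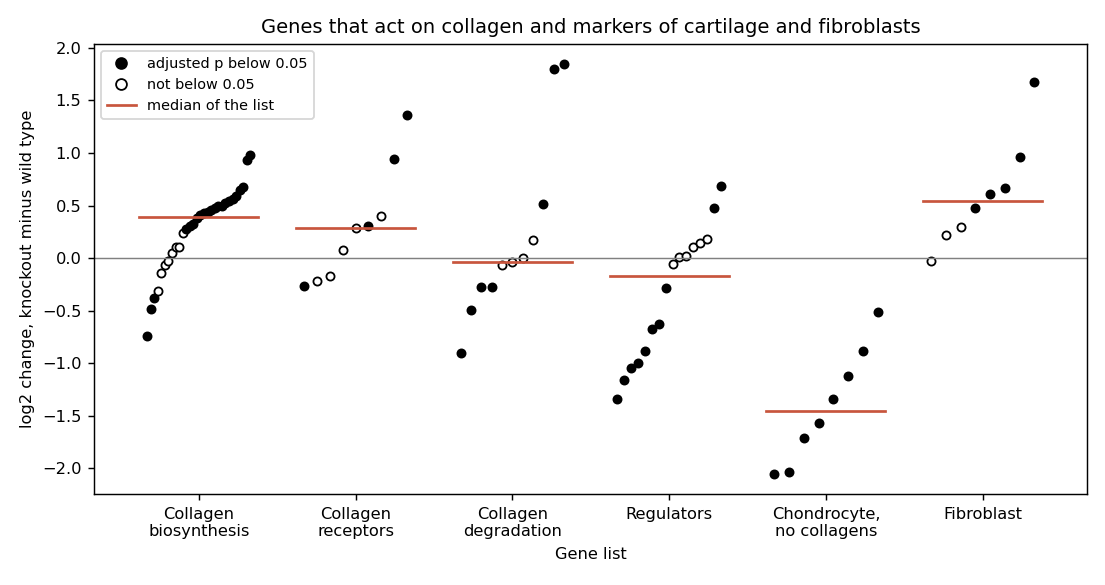
Changes, knockout minus wild type in log2 units, on the vertical axis, of the analysed genes of each collagen pathway list and of the chondrocyte and fibroblast marker lists, with 1 point per gene, points filled where the adjusted p was below 0.05 and a line at each list's median. Most biosynthesis genes lie above 0 (median 0.39), regulators reach down to -1.35 (Sox5), and all 8 chondrocyte markers lie below 0.

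Markers of several other cell types also differed between the genotypes. All analysed markers of adipocytes (8 of 8, median 1.45), skeletal muscle (9 of 9, median 1.00) and epithelium (8 of 8, median 1.43) were higher in the knockout. All 6 neuronal ones were lower (median -2.95). For this and the lists below, the shares over all analysed genes were 20.6% higher, 19.1% lower and 39.7% called in either direction. Summed intensities went from 4335 to 4430 up to 11123 to 12898 for adipocyte markers, from 8818 to 9702 up to 15474 to 16217 for muscle markers, from 1465 to 1600 up to 2743 to 2997 for epithelial markers and from 7255 to 8180 down to 1357 to 1465 for neuronal markers. Fabp4, Krt5, Epcam and Pecam1 were detected on 0 arrays. Of 8 analysed fibroblast markers 5 were higher and 3 did not pass, and of 8 smooth muscle and pericyte markers 5 were higher and 3 did not pass. Summed smooth muscle and pericyte markers were 43133 to 44740 in the knockout and 45716 to 49471 in the wild type. These and the other sums are of intensities before normalization. Acta2, the brightest marker of that list (15.38 in the wild type and 15.33 in the knockout), did not pass (-0.05 ± 0.09, adjusted p = 0.71). Of 6 endothelial markers 3 were higher, 1 was lower and 2 did not pass, with sums of 2154 to 2471 in the wild type and 2548 to 2697 in the knockout. Of 5 macrophage markers 1 was higher, 2 were lower and 2 did not pass, with sums of 3603 to 4232 and 2766 to 3054. Of 5 osteoblast markers 1 was higher, 1 was lower and 3 did not pass, a called share of 40% that is near the 39.7% of all genes, with sums of 1559 to 1737 and 1839 to 2020. Thy1, a surface protein of fibroblasts, changed by 1.68 ± 0.099, and summed fibroblast markers went from 29834 to 37786 up to 47961 to 50983. The part of these cell types in the collagen changes was not tested.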

How the data were processed

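RNA of the 6 fibroblast samples was isolated with Trizol, turned into biotin-labelled cRNA and read on Illumina mouse bead arrays, per the labels' protocols. Per array, the authors deposited each probe's intensity before normalization and its detection p-value. Their deposited log2 values, made with limma per the submitters' processing notes, were used only as an alternative, and the group means of these differed by at most 9e-05 from log2 intensities that were quantile-normalized without background correction. The median of each of their columns was 6.54, so scale, centring and direction were settled. Headers of the deposited intensity table give a genotype and a letter (A to F) only.

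Intensities were background-corrected with normexp from the detection p-values, quantile-normalized and log2-transformed after adding an offset of 16 (neqc, limma 3.58.1, R 4.3.3). For dim probes the offset shrinks the change. Probes with a detection p below 0.05 on at least 3 of 6 arrays were kept, 19802 of 45281 (43.7%), and names came from GEO's platform annotation. Of all probes, 34885 had 1 gene symbol there, 18 had several and 10378 had none. Knockout was tested against wild type with lmFit and eBayes (residual degrees of freedom 4, prior 5.27), and p-values were adjusted by Benjamini-Hochberg over the kept probes. The fit and its p-value adjustment were tested on simulated log2 values, in which far fewer probes changed than were called here. Background correction, normalization, the filter and the choice of the brightest probe were not part of that simulation. The number of arrays limits the precision.

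The members, the classes and the lists (collagen biosynthesis, receptors, degradation, regulators, and cell type markers) were chosen with earlier results of these data known. By the rule for named genes, each collagen is accounted for, with values on every array for up to 5 of each class with the largest called change and for their partner chains, and pathway genes are named by size of change or as background to them. Values of further collagens, promoters and some list members, such as those that did not pass, were added after they were seen. The alternatives covered other background corrections, scalings, filters, probe rules and thresholds, a replicate block, and fits that left out 1 array.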

Additional observations from a re-analysis of the deposited data

How the results depend on the processing

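No called collagen gene changed direction under any alternative run. For single pathway genes this was not tested. The collagen counts stayed between 14 and 18 higher and between 7 and 11 lower over all settings, and the sizes depended mostly on the treatment of dim probes. Without background correction (offset of 50), the median change was 0.18 for all collagens, 0.37 for the main fibrillar, -0.50 for the cartilage and 0.72 for the FACIT collagens. With the authors' log2 values, these medians were 0.26, 0.44, -0.66 and 0.80. With an offset of 50 after background correction, they were 0.34, 0.52, -0.86 and 0.87. Median scaling gave 0.74 (main fibrillar), -1.42 (cartilage) and 0.81 (FACIT). Without the detection filter, which adds genes near background, medians were 0.14 for all collagens, -0.96 for cartilage, 0.30 for basement membrane, 0.12 for type VI and 0.79 for FACIT collagens. A detection p below 0.01 on all 6 arrays gave 0.46 for main fibrillar, -1.38 for cartilage and 0.86 for basement membrane collagens. The mean of a gene's kept probes gave 0.59 and -0.68 for main fibrillar and cartilage collagens. In an alternative added after the data were seen, collagens detected on at least 1 array of each genotype had a median of 0.53.

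Leaving out each array in turn gave medians of 0.86 to 1.03 for FACIT and of 0.61 to 0.70 for main fibrillar collagens. The calls on Col8a2 and Col26a1 were lost under 7 and 6 settings, Col4a1 was lost at an adjusted p threshold of 0.01, and Col11a1, which did not pass in the report, passed under 6 settings. Col8a1 passed under 3 settings and Col5a2 under 2. The cause was not tested.

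The authors' log2 columns carry replicate numbers shared by the genotypes. Deviations of same-numbered arrays correlated at -0.05, 0.02 and -0.05, and no sample correlated best with its own number. The correlations thus gave no sign that the numbers pair the samples. They cannot exclude a pairing whose effect is small beside the variation among arrays. With a replicate block on the authors' values, 18 collagens were higher and 10 lower, and medians were 0.26 for all, 0.44 for main fibrillar, -0.66 for cartilage and 0.80 for FACIT collagens. Small intensities over background limit the sizes for Col5a3, Col9a3, Col28a1, Col4a6 and, in the knockout, Col10a1.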
